A study of Arabidopsis thaliana with 10 samples.

Results

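Stem segment III of wild-type Arabidopsis thaliana was compared with stem segment I, which are the lower and the upper end of the stretch of inflorescence stem with RNA-seq in this study. Segment III (WT III) lay 10 to 12 cm below the top of stems grown to a height of 20 cm, and segment I (WT I) was the top 0 to 3 cm. Both segments came from wild-type plants of the accession Col, grown at 22 °C with 16 h of light and 8 h of dark a day. RNA was sequenced with 1 library per segment, and the sources used here do not say whether stems of several plants were pooled. The study holds 10 samples on secondary wall formation in the wild type and in a mutant of ATX1, a histone H3K4 methyltransferase. RNA-seq makes up 4 of them, and WT II, the library of the segment at 5 to 7 cm, is given beside the ends where it adds to the picture.

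Levels are FPKM, fragment counts scaled by transcript length and library size, so levels of different genes can be set side by side. The 2 libraries were joined by gene ID, and a gene counted as measured when it reached 1 FPKM in either of them, which left 18167 of the 23615 listed genes. The difference of a gene is log2(FPKM + 1) in WT III minus log2(FPKM + 1) in WT I, and a gene is called higher or lower in WT III when this difference reaches 1 or -1, which is 2-fold. The added 1 shrinks differences between low values. With 1 library a side there is no replicate check, no error and no test, and every value below describes these libraries. A gene at 0 is said to be listed at 0, since no counts back it and the estimate itself may have failed.

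An inflorescence stem grows near its tip, so tissue further down is older. Near the tip cells divide and elongate within thin, extensible walls, the epidermis lays down its cuticle and the cortex builds its chloroplasts. Further down, interfascicular fibres and xylem cells thicken their walls with cellulose, xylan and lignin, and many of them then die. Arabidopsis stems also make glucosinolates, sulfur compounds that are split by myrosinases when the tissue is wounded.

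The libraries were of like depth, with steps of single fragments in short genes that put them at about 19300000 fragments in WT III and 19900000 fragments in WT I, so that 0.5 FPKM on a transcript of 1 kb stands for about 10 fragments. The FPKM sum was 684868 in WT III, where 17282 genes reached 1 FPKM, and 704606 in WT I, where 17334 genes did. Markers of the cell types that a segment could hold were summed as FPKM. The 3 fibre markers were all higher in WT III, with a sum of 561 in WT III and 55.03 in WT I. The sum was 345 in WT III and 191 in WT I for 4 vessel markers (1 higher), and 325 in WT III and 168 in WT I for 4 phloem markers (2 higher). For 3 guard cell markers it was 46.1 in WT III and 21.8 in WT I (1 higher). Sums were lower in WT III for 4 epidermis markers, with 466 in WT III and 564 in WT I (2 lower), and for 3 markers of dividing cells, with 27.3 in WT III and 71.7 in WT I (3 lower). For 3 leaf mesophyll markers, which are photosynthesis genes, the sum was 5069.7 in WT III and 13117 in WT I (3 lower). Of the shoot meristem markers, WUS and CLV3 stood at 0.04 FPKM or less at both ends, and STM had 98.3 FPKM in WT III and 58.9 FPKM in WT I. Of 7 flower bud and anther markers 4 were measured, and of these 0 were higher and 2 lower. TPD1 had 14.3 FPKM in WT III and 15.9 FPKM in WT I, AP1 1.93 FPKM in WT III and 6.16 FPKM in WT I and SEP3 0.31 FPKM in WT III and 1.01 FPKM in WT I. AP3, PI, AG and AMS were listed at 0 in WT III and had 0.69, 1.12, 0.11 and 0.06 FPKM in WT I. The pollen marker VGD1 was listed at 0 in WT III and at 0.42 FPKM in WT I. Of the root markers, PYK10 had 0.03 FPKM in WT III and was listed at 0 in WT I, and SHR had 14.2 FPKM in WT III and 16.8 FPKM in WT I. All of the fibre, dividing cell and leaf mesophyll markers also stand on gene lists below, as do some of the vessel, phloem and epidermis markers. The marker sums are therefore not separate from the results of those lists. The part of these marker differences in the results below was not tested.

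Across the measured genes, 12.4% were at least 2-fold higher in WT III and 12.8% were at least 2-fold lower, which is the background for every list below. In bulk tissue, fewer cells of a type and less RNA in each cell cannot be told apart. The middle of the distribution did not move, with a median difference of 0.0036 and quartiles of -0.52 and 0.51, but its tails were long. At least 8-fold differences were seen in 237 genes that were higher and 191 that were lower, and at least 32-fold differences in 26 and 33 genes. The lower side reached further, to -10.55 for GER3, against 6.79 for GolS2 on the higher side. At the border of the rule, AT1G17600 stood at 1 FPKM in WT III and was listed at 0 in WT I, and so just counted as higher. AT5G46140, at 1.18 FPKM in WT III and 0.09 FPKM in WT I, also has a difference of 1 but was not counted. AT1G18550 at 1.48 FPKM in WT III and 3.96 FPKM in WT I just counted as lower. AT5G66607, at 0.89 FPKM in WT III and 2.78 FPKM in WT I, also has a difference of -1 but was not counted. Rounding in the computation decided these cases, so the counts of called genes may leave out genes at exactly 2-fold. AT1G62620 at 0.99 FPKM in WT III and 0.87 FPKM in WT I just failed to count as measured.

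**Figure D1:**
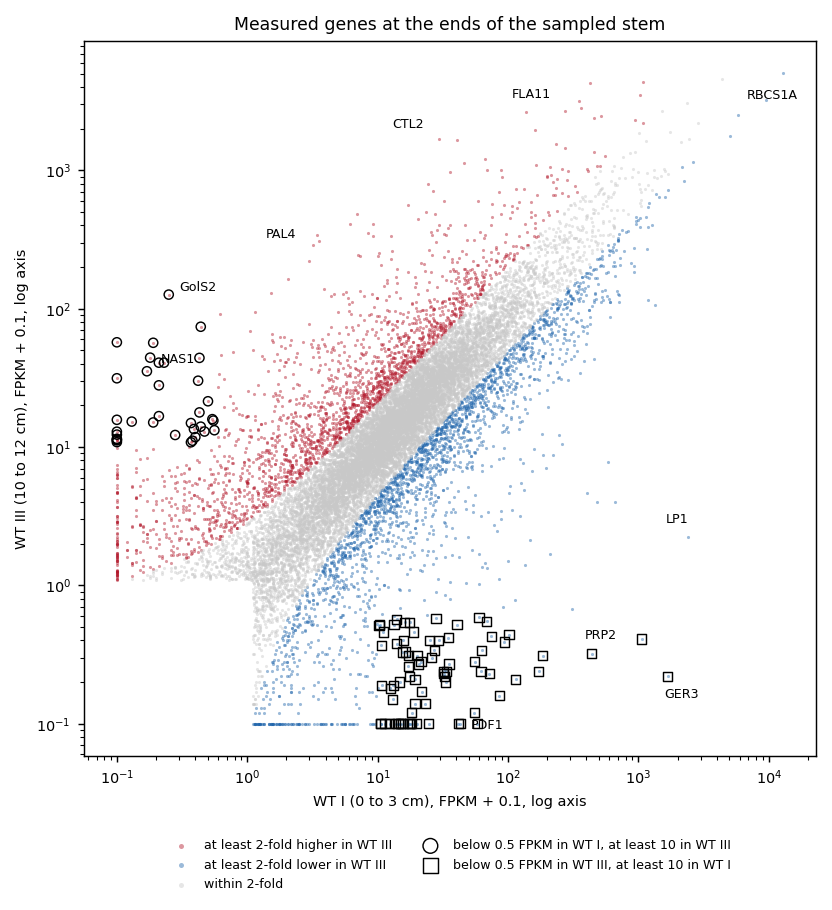
Each point is 1 of the 18167 measured genes, with its level in WT III on the y axis and in WT I on the x axis, both as FPKM + 0.1 on log axes. Red points are at least 2-fold higher in WT III, blue points at least 2-fold lower and grey points within 2-fold. Circles mark the 35 genes near 0 in WT I and squares the 76 genes near 0 in WT III, of which GER3 and PRP2 lie far to the right, whereas no circle lies above GolS2.

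Photosynthesis genes led both transcriptomes, but in WT III they shared the top ranks with genes of walls, methylation and peroxide metabolism. The 10 highest genes held 5.37% of the FPKM sum in WT III and 7.13% in WT I, and 4 genes belonged to both groups of 10. RBCS1A, a gene for the small subunit of the carbon-fixing enzyme Rubisco, ranked first at both ends, with 5041 FPKM in WT III against 12897 FPKM in WT I. The other small subunit genes had 3226 FPKM (RBCS3B), 1761 FPKM (RBCS2B) and 844 FPKM (RBCS1B) in WT III, against 9475, 5041 and 2249 FPKM in WT I. All of them were lower in WT III, with differences between -1.55 (RBCS3B) and -1.35 (RBCS1A). In WT II, RBCS1A had 12468 FPKM, close to its level in WT I. These genes are near-identical copies, so the division of reads among them is uncertain, as it is for CAB1, a chlorophyll a/b-binding protein gene with 2511 FPKM in WT III and 5766 FPKM in WT I.

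Next in rank in WT III came genes that were far lower in WT I. CAT3 (AT1G20620), a catalase that breaks down hydrogen peroxide, ranked 3 in WT III with 4323 FPKM and 41 in WT I with 1093 FPKM. PRXR1, a peroxidase, ranked 7 in WT III with 3202 FPKM and 280 in WT I with 353 FPKM. SAM1, which makes the methyl donor S-adenosylmethionine, ranked 9 in WT III with 2843 FPKM and 270 in WT I with 362 FPKM. CCoAOMT1, a methyltransferase of lignin monomer synthesis, ranked 10 in WT III with 2702 FPKM and 404 in WT I with 274 FPKM. The widest gap in rank among the 15 highest of WT III was that of FLA11, a fasciclin-like arabinogalactan protein of secondary walls, which ranked 12 in WT III with 2636 FPKM and 898 in WT I with 137 FPKM. CAT3 and PRXR1 both act on hydrogen peroxide, and SAM1 and CCoAOMT1 on methyl transfer. MT2B, a metallothionein that binds metal ions, had 2376 FPKM in WT III and 459 FPKM in WT I. AT1G67800 and AT2G25510, which carry no gene name in the annotation used, ranked 4 and 14 in WT III with 4255 and 2466 FPKM, against 426 and 522 FPKM in WT I.

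Other dominant genes lay within 2-fold. The myrosinase TGG2 had 4615 FPKM in WT III and 4419 FPKM in WT I, and HSC70-1, a cytosolic chaperone, had 1903 FPKM in WT III and 1742 FPKM in WT I. PSBR of photosystem II, at 3061 FPKM in WT III and 2344 FPKM in WT I, RCA, the activase of Rubisco, at 2202 FPKM in WT III and 2873 FPKM in WT I, TCTP, at 2700.2 FPKM in WT III and 1506 FPKM in WT I, and the myrosinase TGG1, at 1679 FPKM in WT III and 2441 FPKM in WT I, belonged to this group too. LTP3, a lipid transfer protein, had 1603 FPKM in WT III and 2114 FPKM in WT I. CA1, a carbonic anhydrase, was lower at 1058 FPKM in WT III and 2165 FPKM in WT I, a difference of -1.03 that comes to -0.99 when the libraries are scaled to equal FPKM sums. Of the unnamed genes among the 15 highest of WT I, AT1G20290 was lower, with 1147 FPKM in WT III and 2624 FPKM in WT I, and AT1G09310 had 949 FPKM in WT III and 1695 FPKM in WT I. Among the 15 highest of WT I, LP1 (also called LTP1), a lipid transfer protein, was the only gene that left the top 100 of WT III altogether. It ranked 9 in WT I with 2395 FPKM and 15751 in WT III with 2.14 FPKM.

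**Figure D2:**
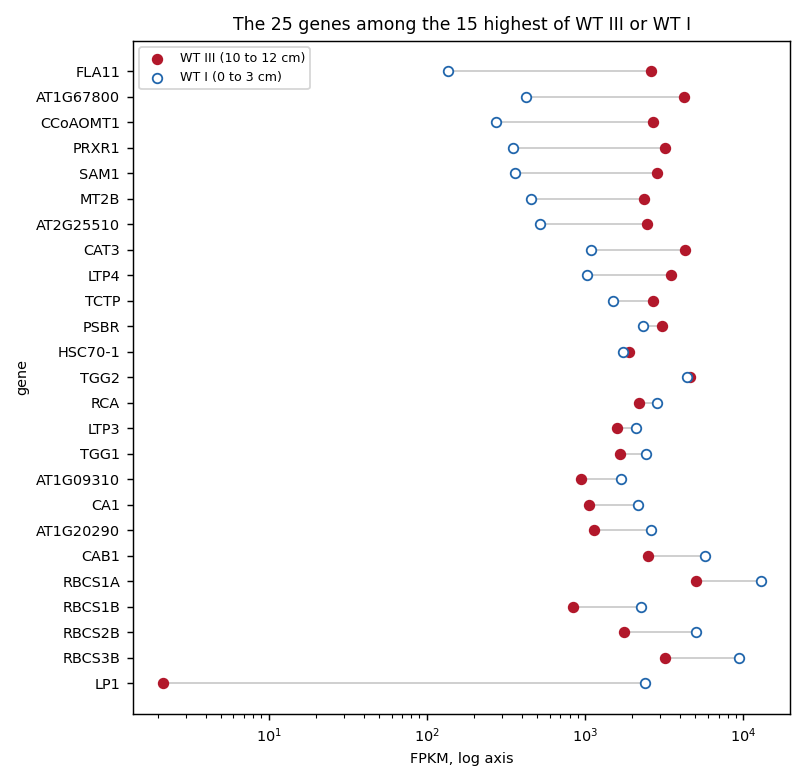
The 25 genes that belong to the 15 highest of WT III or of WT I, ordered by their difference, with FPKM on a log axis. Filled red points are WT III and open blue points WT I, with 1 library each. FLA11 has the largest difference on the higher side at 4.26, and LP1 on the lower side at -9.58.

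Of the 100 highest genes of each end, 48 were shared. Among the 100 highest of WT III, 45 were called higher there and 8 lower, and among the 100 highest of WT I, 4 were higher in WT III and 52 lower. The 100 highest of WT III held 20.5% of the FPKM sum there and 15.6% in WT I. The 100 highest of WT I held 13.4% in WT III and 20.4% in WT I. Both sets were picked by the same levels that give the calls, so a lean towards the library of the pick is built in. No other 100 genes can hold a larger share of that library either. The direction of these counts and shares is therefore no separate result. Genes for secondary walls numbered 9 in the top 100 of WT III and 0 in that of WT I, methyl cycle genes 7 and 2, and nuclear photosynthesis genes 19 and 35.

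In WT III, 11 of the 100 highest genes stood outside the 1000 highest of WT I. CTL2, a chitinase-like protein needed for the cellulose of secondary walls, had 1687 FPKM in WT III (rank 23) and 29.4 FPKM in WT I (rank 4497). CESA4, a secondary wall cellulose synthase, the laccase IRX12 (LAC4), which links lignin monomers, and the lignin monomer genes OMT1, 4CL1 and HCT belonged to the same group. So did MS2 (AT3G03780), a methionine synthase, with 1207 FPKM in WT III and 66.7 FPKM in WT I, and BCAT4, the aminotransferase at the start of methionine-derived glucosinolate synthesis, with 796 FPKM in WT III and 24.3 FPKM in WT I. The rest were AAP2, an amino acid permease, with 1011 FPKM in WT III and 69.4 FPKM in WT I, MLP28 with 1013 FPKM in WT III and 87.8 FPKM in WT I, and DYL1 with 729.6 FPKM in WT III and 115 FPKM in WT I.

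In WT I, 7 of the 100 highest genes stood outside the 1000 highest of WT III. Beside LP1 these were the germin-like genes GER3, at 0.12 FPKM in WT III and 1682 FPKM in WT I, and GER1 (AT1G72610), at 115 FPKM in WT III and 1192 FPKM in WT I, the tonoplast aquaporin DELTA-TIP, at 106 FPKM in WT III and 1349 FPKM in WT I, and ROC4, a chloroplast cyclophilin, at 112 FPKM in WT III and 712 FPKM in WT I. VSP1, a vegetative storage protein induced by jasmonate, had 3.91 FPKM in WT III and 658 FPKM in WT I, and the unnamed AT2G10940 had 0.31 FPKM in WT III and 1060.1 FPKM in WT I. Only GER3 and AT2G10940 of these 7 lay below 0.5 FPKM in WT III.

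Shares of the FPKM sum held by classes of listed genes differed as well. Each class holds only the genes on the lists used here, not every gene of its kind. Some genes count in each class that lists them. Genes of glucosinolate synthesis held 0.600% of the FPKM sum in WT III and 0.0806% in WT I, and metallothioneins 0.625% in WT III and 0.155% in WT I. On the other side, cytosolic ribosomal proteins held 0.571% in WT III and 1.36% in WT I, chloroplast ribosomal proteins 0.481% in WT III and 1.78% in WT I, and aquaporins 0.482% in WT III and 0.992% in WT I. Lipid transfer proteins hardly moved as a class, with 0.782% in WT III and 0.882% in WT I. Genes of cell division took small shares at both ends, 0.116% in WT III and 0.215% in WT I. Nuclear photosynthesis genes held 13.1% in WT II, above both ends.

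**Figure D3:**
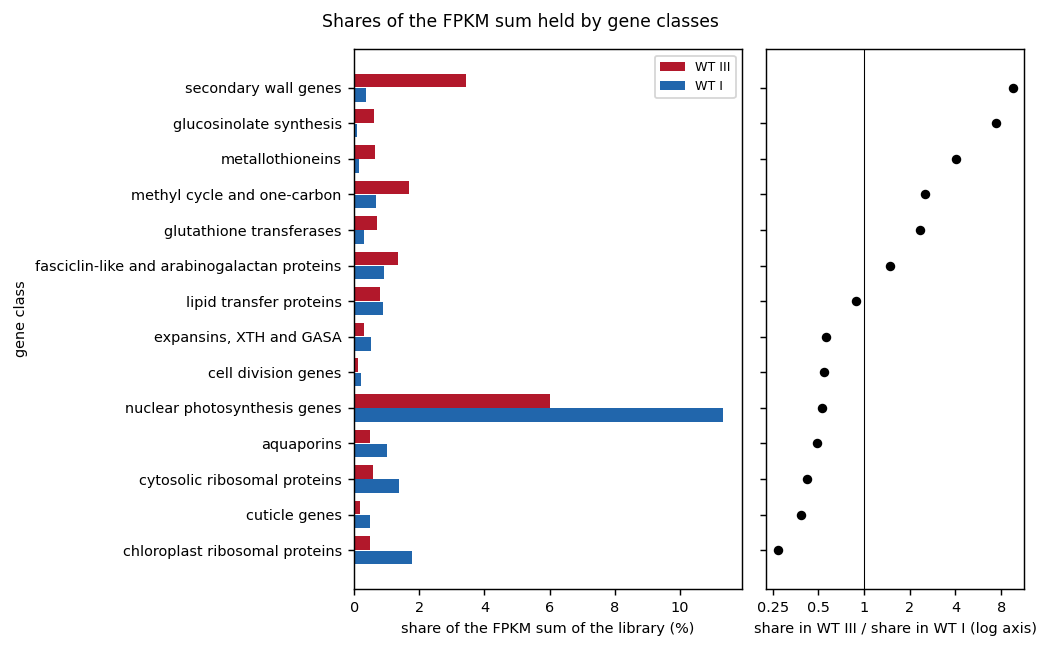
The left panel gives the share of the FPKM sum that each of 14 gene classes held in WT III (red) and WT I (blue), with 1 library each, and the right panel the ratio of these shares on a log axis. Secondary wall genes held 3.43% in WT III against 0.360% in WT I, and nuclear photosynthesis genes 6.0% in WT III against 11.3% in WT I.

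More genes of WT I were near 0 in WT III than the reverse. A level below 0.5 FPKM in WT I and of at least 10 FPKM in WT III was found in 35 genes, 0.193% of those measured, and the opposite in 76 genes, 0.418%. The 35 genes reached at most 127 FPKM, and 1 of them passed 100 FPKM. The 76 genes reached up to 1682 FPKM, and 7 of them passed 100 FPKM. In WT II, 11 of the 35 genes already had at least 10 FPKM, 0 were below 0.5 FPKM and 24 lay between. Of the 76 genes, 26 were already below 0.5 FPKM in WT II, 4 still had at least 10 FPKM and 46 lay between.

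The 35 genes near 0 in WT I included 9 that were listed at 0 there, and 16 carry a gene name. GolS2, a galactinol synthase for the raffinose family of sugars, led with 127 FPKM in WT III and 0.15 FPKM in WT I. NAS1, which makes the metal chelator nicotianamine, had 44.2 FPKM in WT III and 0.08 FPKM in WT I, and FUT4, a fucosyltransferase, had 35.2 FPKM in WT III and 0.07 FPKM in WT I. The other 7 of the 10 highest carry no gene name and ranged from 31.3 FPKM in WT III (AT3G62730, listed at 0 in WT I) to 74.04 FPKM (AT2G41610, 0.34 FPKM in WT I). AT1G76960 was listed at 0 in WT I and had 6.10 FPKM in WT II and 57.1 FPKM in WT III. AT2G38790 had 0.09 FPKM in WT I, 4.27 FPKM in WT II and 56.7 FPKM in WT III, so both had only a small part of their level by WT II. AT3G62730 and AT2G41610 were instead already at 33.99 and 58.3 FPKM in WT II.

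Members of the set that were chosen after their values were seen include regulators and enzymes of the wall. NAC066 (NST2), a NAC factor that can switch on secondary wall formation, had 14.97 FPKM in WT III and 0.09 FPKM in WT I, and MYB69, a MYB factor of secondary walls, had 12.2 FPKM in WT III and was listed at 0 in WT I. ADT6, an arogenate dehydratase of phenylalanine synthesis, had 13.4 FPKM in WT III and 0.29 FPKM in WT I, and MAN7, an endo-mannanase, had 12.8 FPKM in WT III and was listed at 0 in WT I. WAK3, a wall-associated kinase, had 15.2 FPKM in WT III and 0.03 FPKM in WT I, and UMAMIT17, of a family of amino acid transporters, had 27.9 FPKM in WT III and 0.11 FPKM in WT I. GSTF7, a glutathione transferase, had 30.1 FPKM in WT III and 0.32 FPKM in WT I, with a near-identical neighbour, GSTF6, whose reads it may share.

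The 76 genes near 0 in WT III included 17 listed at 0 there, and 37 carry a gene name. Of the gene lists, cutin, flavonoids, expansins and auxin response have 2 members each among them, and wax, lipid transfer proteins, germin-like proteins, extensins and proline-rich proteins, xyloglucan endotransglucosylases, drought and cold proteins, and myrosinases and nitrilases 1 each. The 10 highest in WT I began with GER3 and AT2G10940 and went on with PRP2, a proline-rich wall protein, at 0.22 FPKM in WT III and 437 FPKM in WT I. ADS4, of a family of fatty acid desaturases, had 0.14 FPKM in WT III and 171 FPKM in WT I, and BAS, which makes the triterpene beta-amyrin, had 0.11 FPKM in WT III and 115 FPKM in WT I. LTL1, a GDSL lipase, had 0.29 FPKM in WT III and 93.3 FPKM in WT I, MLP423 had 0.34 FPKM in WT III and 102 FPKM in WT I and BZIP61, a bZIP transcription factor, had 0.33 FPKM in WT III and 74.3 FPKM in WT I. The unnamed AT5G15780 and AT5G51950 had 0.21 and 0.06 FPKM in WT III, against 184 and 85.5 FPKM in WT I.

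These 10 genes reached their low level at different places along the stem. ADS4 and MLP423 were already at 0.38 and 0.67 FPKM in WT II, and AT5G51950 was listed at 0 there. GER3 and AT2G10940 still had 67.05 and 62.6 FPKM in WT II, and BAS and AT5G15780 12.8 and 10.9 FPKM.

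Further members of the 76, again chosen after their values were seen, belong to the cuticle, to flavonoids, to growth and to hormone synthesis. WSD1, which makes wax esters, had 0.14 FPKM in WT III and 62.1 FPKM in WT I, CYP86A4, a fatty acid hydroxylase of cutin synthesis, had 0.17 FPKM in WT III and 35.2 FPKM in WT I, and the lipid transfer protein LTP6 had 0.18 FPKM in WT III and 55.5 FPKM in WT I. PDF1, a marker of the outer cell layer, was listed at 0 in WT III and had 42.9 FPKM in WT I. FLS1, flavonol synthase, had 0.42 FPKM in WT III and 40.5 FPKM in WT I. BR6OX1, a late enzyme of brassinosteroid synthesis, had 0.09 FPKM in WT III and 10.6 FPKM in WT I. MIOX2, a myo-inositol oxygenase, had 0.14 FPKM in WT III and 33.4 FPKM in WT I. RGF6, a gene for a signalling peptide, was listed at 0 in WT III and had 11.3 FPKM in WT I. Of the epidermis markers, KCS6 (CER6) and KCS10 (FDH) lay within 2-fold, at 422 and 38.9 FPKM in WT III against 440.4 and 69.2 FPKM in WT I, beside PDF1 and ATML1, which were lower.

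Genes of the secondary wall were mostly higher in WT III, from regulators to enzymes. Of the secondary wall regulators 18 of 23 were higher in WT III (median 2.49), and of the genes for secondary wall cellulose 8 of 8 (median 4.31), against a background of 12.4% and a median of 0.0036. AtMYB103 and the NAC factor NAC012 (SND1), a switch of fibre walls, had 163 and 131 FPKM in WT III against 1.96 and 1.41 FPKM in WT I. KNAT7, a homeodomain factor of secondary walls, had 123 FPKM in WT III and 7.73 FPKM in WT I, and MYB52 had 46.2 FPKM in WT III and 0.53 FPKM in WT I. The 5 regulators within 2-fold were MYB83, BLH7, MYB54, MYB4 and AT1G66810, and all of them were above their WT I level by 0.19 to 0.97.

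Xylan is the main polymer that coats cellulose in these walls, and 13 of its 18 genes were higher (median 2.92). IRX15-L had 335 FPKM in WT III and 9.19 FPKM in WT I, GAUT12 (IRX8) 241 FPKM in WT III and 7.29 FPKM in WT I, and PARVUS 405 FPKM in WT III and 47.1 FPKM in WT I. IRX15-L is a close relative of IRX15, which differed by 5.86, but relatives of other xylan genes parted from them. F8H, the close relative of FRA8, was lower, with 3.11 FPKM in WT III and 19.6 FPKM in WT I, while FRA8 had 54.1 FPKM in WT III and 3.85 FPKM in WT I. IRX9-L and IRX14-L lay within 2-fold at 23.2 and 6.56 FPKM in WT III, against 28.6 and 9.27 FPKM in WT I, while IRX9 and IRX14 were higher by 2.96 and 1.94.

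All 16 genes of lignin monomer synthesis were higher (median 3.30), and their share of the FPKM sum was 1.39% in WT III against 0.12% in WT I. PAL1, at the entry of the pathway, had 604 FPKM in WT III and 32.3 FPKM in WT I, C4H had 693 FPKM in WT III and 85.2 FPKM in WT I, and CAD5, the last reductase, had 358 FPKM in WT III and 25.7 FPKM in WT I. FAH1 (AT4G36220), the hydroxylase that opens the syringyl branch, was the only member of the 16 nearer to WT I than to WT III in WT II, with 12.7 FPKM in WT I, 35.5 FPKM in WT II and 230.5 FPKM in WT III. Of 6 genes of lignin polymerisation 3 were higher, with LAC17 at 386 FPKM in WT III and 34.9 FPKM in WT I and LAC2 at 231 FPKM in WT III and 37.1 FPKM in WT I, and 1 was lower, the peroxidase AT5G66390, listed at 0 in WT III and at 5.53 FPKM in WT I. Of 5 vessel cell death genes 3 were higher, with the metacaspase MC9 at 70.96 FPKM in WT III and 9.01 FPKM in WT I, while the protease XCP1 had 84.3 FPKM in WT III and 82.8 FPKM in WT I. The vessel master factors NAC101 (VND6) and VND7 had 8.80 and 2.48 FPKM in WT III against 9.47 and 2.75 FPKM in WT I.

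The methyl cycle supplies the methyl groups for lignin and for xylan, and it was described with a list made after values of these libraries had been seen. Of its 13 genes 6 were higher and 0 lower, and their share of the FPKM sum was 1.69% in WT III and 0.67% in WT I. Members of the same family parted. Among S-adenosylmethionine synthetases, SAM1, MAT3 and SAM-2 were higher, with MAT3 at 920.3 FPKM in WT III and 214 FPKM in WT I and SAM-2 at 1030.4 FPKM in WT III and 403 FPKM in WT I, while MTO3 was within 2-fold with 343 FPKM in WT III and 586 FPKM in WT I. MTO3 was the highest of the 4 in WT I and the lowest in WT III. Among methionine synthases, MS2 differed by 4.16 and ATMS1 by 0.88, with ATMS1 at 1862 FPKM in WT III and 1014 FPKM in WT I. SAHH2, which clears the product of methylation, had 1353 FPKM in WT III and 457 FPKM in WT I, while HOG1, the other gene for this enzyme, had 785 FPKM in WT III and 688 FPKM in WT I.

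Glucosinolate synthesis formed another block on the higher side. Of 17 genes listed for the methionine-derived (aliphatic) branch 16 were higher in WT III (median 3.34). CYP79F1, which makes the aldoxime intermediate, had 355 FPKM in WT III and 8.27 FPKM in WT I. MAM1, which elongates the methionine chain, had 562 FPKM in WT III and 17.03 FPKM in WT I, and CYP83A1 had 606 FPKM in WT III and 58.8 FPKM in WT I. The regulators MYB28 and MYB29 had 102 and 87.9 FPKM in WT III, against 25.2 and 9.74 FPKM in WT I. The exception on the list was IMD3, an isopropylmalate dehydrogenase, at 18.8 FPKM in WT III and 43.9 FPKM in WT I. Whether IMD3 serves this branch cannot be told from these data. In the tryptophan-derived (indole) branch 5 of 7 genes were higher, with CYP79B3 at 62.7 FPKM in WT III and 1.69 FPKM in WT I and CYP79B2 at 53.6 FPKM in WT III and 1.73 FPKM in WT I. Both are also the entry to the defence compound camalexin.

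Genes of glucosinolate breakdown lay within 2-fold with 1 exception. Of 6 genes for myrosinases, their partner proteins and nitrilases 0 were higher and 1 was lower, ESM1, a modifier of the breakdown products, listed at 0 in WT III and at 19.9 FPKM in WT I. Of 29 glutathione transferases 6 were higher and 2 lower, to be read beside the background of 12.4% and 12.8%. Those that were higher were GSTF2, GSTF6, GSTF7, GSTF9, GSTF11 and GSTU20. GSTF9 had 1449 FPKM in WT III and 272 FPKM in WT I, GSTU20 910.2 FPKM in WT III and 198 FPKM in WT I, and GSTF11, which takes part in aliphatic glucosinolate synthesis, 55.9 FPKM in WT III and 2.99 FPKM in WT I. Of 4 metallothioneins 3 were higher, with MT3 at 1543 FPKM in WT III and 235 FPKM in WT I, while MT2A had 361 FPKM in WT III and 398 FPKM in WT I.

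On the lower side, genes that build and run the chloroplast separated into groups. Of 24 nuclear genes for chloroplast ribosomal proteins 22 were lower and 0 higher (median -2.20), with PSRP2 at 30.7 FPKM in WT III and 256 FPKM in WT I. Of 22 chloroplast genes for ribosomal proteins 13 were lower and 0 higher, with RPL14 at 49.7 FPKM in WT III and 341 FPKM in WT I and RPS3 (ATCG00800) at 111 FPKM in WT III and 605 FPKM in WT I. All 4 chloroplast genes for the subunits of the chloroplast's own RNA polymerase were lower, of which 2 reach 5 FPKM, with RPOA at 36.5 FPKM in WT III and 157 FPKM in WT I and RPOB at 1.37 FPKM in WT III and 10.00 FPKM in WT I. These 3 lists were made after values of these libraries had been seen. Copies of RPL2, RPL23, RPS7 and RPS12 in the chloroplast genome are listed with identical values, so each of these pairs is 1 measurement.

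Nuclear photosynthesis genes were on the lower side too, with medians closer to 0. Of 24 photosystem subunit genes 11 were lower (median -0.82), of 19 genes of Rubisco and the Calvin cycle 10 were lower and 1 higher (median -1.12), and of 19 light-harvesting genes 7 were lower and 2 higher (median -0.83). PSAH2 had 269.6 FPKM in WT III and 1169 FPKM in WT I, and NPQ4, the PsbS protein of energy dissipation, 388 FPKM in WT III and 1035 FPKM in WT I. The members on the opposite side were AT2G45290 in the Calvin cycle list at 95.04 FPKM in WT III and 17.1 FPKM in WT I, AT1G76570 at 10.3 FPKM in WT III and 4.23 FPKM in WT I, and LHB1B1 at 80.7 FPKM in WT III and 21.00 FPKM in WT I. LHB1B1 belongs to a family of near-identical copies.

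Photosynthesis genes of the chloroplast genome went both ways, with 8 of 29 higher and 5 lower. The number lower was 9 with a pseudocount of 0.1 and 2 among genes at 5 FPKM or more, and the median of -0.06 became 0.90 at 5 FPKM or more. PSBD and PSBC, neighbours in 1 transcription unit of photosystem II, had 312 and 174 FPKM in WT III against 48.2 and 31.1 FPKM in WT I. ATPE and PB, the symbol listed for the beta subunit, both of the ATP synthase, had 1083 and 767 FPKM in WT III against 484 and 328 FPKM in WT I. NDHH and NDHA, of the NADH dehydrogenase-like complex, were lower, at 5.80 and 2.12 FPKM in WT III against 25.7 and 9.78 FPKM in WT I. RBCL, the large subunit of Rubisco, was listed at only 2.09 FPKM in WT III and 3.82 FPKM in WT I. All chloroplast genes together held 0.576% of the FPKM sum in WT III and 0.701% in WT I, and mitochondrial genes 0.0131% and 0.00746%. How fully the libraries captured organelle transcripts was not tested, so levels of organelle genes may not follow their amounts in the tissue. Among the 108 mitochondrial genes 27 were measured and 6 of these were higher, of which ORF113 had the highest level at 7.61 FPKM in WT III and 2.80 FPKM in WT I. At these low levels the number depends on the settings, with 11 higher and 1 lower with a pseudocount of 0.1 and 2 higher at 5 FPKM or more.

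Genes of the cytosolic ribosome were lower as a block, and with them genes of cell division. Of 37 cytosolic ribosomal protein genes 29 were lower and 1 higher (median -1.30), with RPL18 at 202 FPKM in WT III and 534 FPKM in WT I and RPS6 (AT4G31700) at 79.98 FPKM in WT III and 336 FPKM in WT I. The exception was RPL18AA, at 40.5 FPKM in WT III and 16.2 FPKM in WT I. Of 20 genes of mitosis and cytokinesis 17 were lower, with the syntaxin of the cell plate, SYP111 (KNOLLE), at 11.4 FPKM in WT III and 33.2 FPKM in WT I. Of 14 genes of DNA replication 11 were lower, with TSO2, a subunit of ribonucleotide reductase, at 16.2 FPKM in WT III and 42.4 FPKM in WT I. Histones split, with 7 of 21 lower and 2 higher. HTA10 had 26.2 FPKM in WT III and 112 FPKM in WT I, while HIS1-3, a linker histone induced by drought, had 6.92 FPKM in WT III and 0.26 FPKM in WT I, and HTA12 had 26.4 FPKM in WT III and 9.04 FPKM in WT I.

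These blocks took different courses along the stem, which the comparison of the ends alone does not show. Medians of the differences from WT I were -1.79 in WT II and -1.30 in WT III for cytosolic ribosomal proteins, and 35 of the 37 had their lowest level in WT II. The same dip was seen in 19 of 20 genes of mitosis and cytokinesis, in 13 of 14 genes of DNA replication and in 17 of 21 histones. It was also seen in 12 of 17 tubulins and 12 of 18 heat shock genes, but in 0 of 16 lignin monomer genes. The shares of all measured genes that dip in WT II, peak there or fall at each step were not counted. None of these courses can therefore be called particular to the lists named here. Genes at 10 FPKM or more numbered 9344 in WT II, against 10059 in WT I and 10109 in WT III. Nuclear genes for chloroplast ribosomal proteins instead fell at each step in 22 of 24, with medians of -1.42 in WT II and -2.20 in WT III. Photosystem subunits hardly differed between WT II and WT I (median 0.07), and 13 of 24 peaked in WT II. Lignin monomer genes had most of their difference by WT II (median 2.63), whereas aliphatic glucosinolate genes had 1.68 by WT II and a further 1.41 between WT II and WT III.

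**Figure D4:**
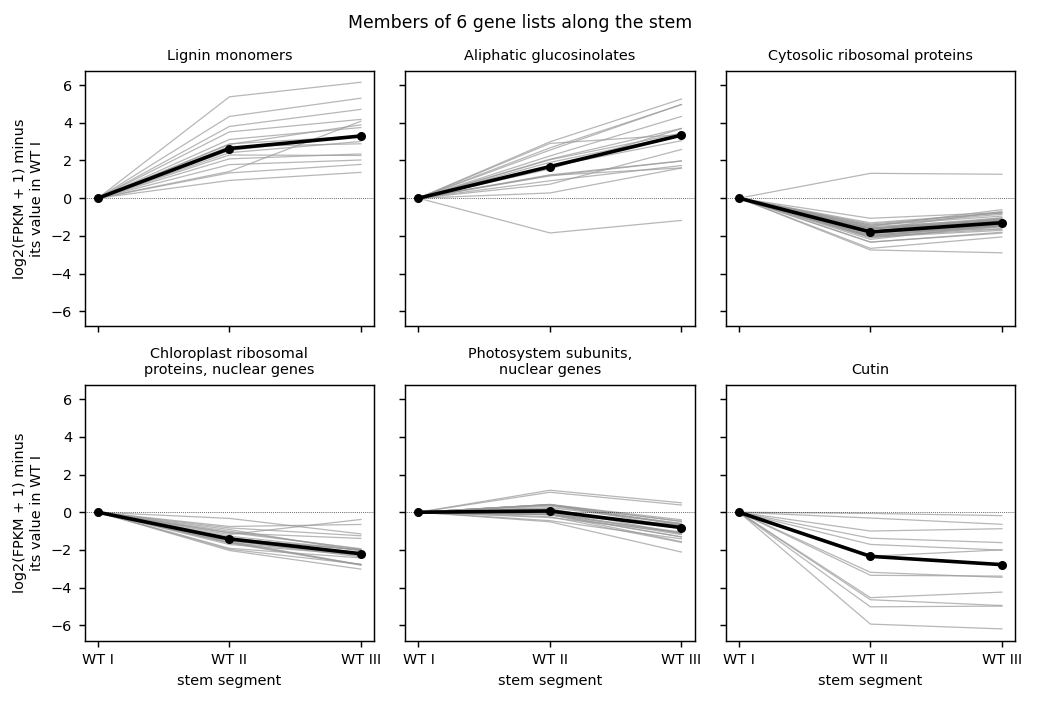
Grey lines are the measured members of 6 gene lists in WT I, WT II and WT III, as log2(FPKM + 1) minus the value in WT I, and black lines are the medians, with 1 library per segment. Cytosolic ribosomal proteins are lowest in WT II, nuclear genes for chloroplast ribosomal proteins go on falling to -2.20, and photosystem subunits are level until WT II.

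For most genes that differed between the ends, WT II stood closer to WT III than to WT I, or past WT III. This was so for 1868 of the 2261 genes that were higher in WT III and for 1994 of the 2330 that were lower. Of the lower genes 1015 lay past WT III in WT II, against 476 of the higher genes. Nuclear photosynthesis genes were the opposite case, since 0 of the 10 lower genes of the Calvin cycle list, 0 of the 11 lower photosystem genes and 1 of the 7 lower light-harvesting genes had WT II closer to WT III.

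Lists of wall loosening and growth held more members that were lower in WT III than members that were higher. Of 14 expansins, which loosen walls, 7 were lower and 1 higher. EXPA5 had 1.02 FPKM in WT III and 84.9 FPKM in WT I, and EXPA8 was listed at 0 in WT III and had 14.2 FPKM in WT I, while EXPA15 had 98.1 FPKM in WT III and 23.3 FPKM in WT I. Of 21 xyloglucan endotransglucosylases, which cut and rejoin wall xyloglucan, 9 were lower and 4 higher, with XTH4 at 126 FPKM in WT III and 712 FPKM in WT I, XTH16 at 4.83 FPKM in WT III and 133 FPKM in WT I and, on the other side, XTH24 at 553 FPKM in WT III and 108 FPKM in WT I. Of 6 genes for gibberellin-regulated GASA peptides 4 were lower, with GASA4 at 3.91 FPKM in WT III and 484 FPKM in WT I, and GASA5 was higher with 7.87 FPKM in WT III and 1.36 FPKM in WT I. Of 7 extensins and proline-rich proteins 4 were lower (2 at 5 FPKM or more), with PRP4 at 7.64 FPKM in WT III and 583 FPKM in WT I, and EXT3 was higher with 28.9 FPKM in WT III and 11.3 FPKM in WT I.

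Primary wall cellulose genes did not share this direction. Of 10 members 2 were higher and 0 lower, POM1 (CTL1), a chitinase-like protein, with 2209 FPKM in WT III and 1080.2 FPKM in WT I, and GH9A1 (KORRIGAN), a membrane cellulase, with 667 FPKM in WT III and 231 FPKM in WT I. The cellulose synthases CESA1 and CESA6 had 189 and 98.2 FPKM in WT III, against 155 and 117 FPKM in WT I.

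In 12 of 15 lists of related proteins a different member had the highest FPKM at each end. These 15 were picked from the 48 gene lists with earlier results known, and they do not cover every family. SWEET exporters and sucrose synthases, for example, were left out, and SWEET17 and SUS1 led them at both ends. In some of the 12 lists the leaders were close, as for tubulins. TUA2 held 17.8% of the tubulin list's FPKM in WT III and 13.0% in WT I, and TUA6 14.4% in WT III and 15.05% in WT I. Of 41 fasciclin-like and other arabinogalactan proteins 8 were higher and 13 lower. FLA11 and FLA12, among the 8, are also counted with secondary wall cellulose. FLA11 held 28.8% of the list's FPKM in WT III and 2.16% in WT I. FLA16 had 593 FPKM in WT III and 121 FPKM in WT I, while FLA9 had 12.1 FPKM in WT III and 246 FPKM in WT I and FLA8 68.5 FPKM in WT III and 373 FPKM in WT I. Of 10 lipid transfer proteins 5 were lower and LTP4 was higher, with 3501 FPKM in WT III and 1029 FPKM in WT I. LTPG1 and LTPG2, among the 5, are also counted with the wax genes. LTP4 held 65.3% of the FPKM of the lipid transfer protein list in WT III, and LP1 38.5% in WT I. The sum of this list differed little, at 5358 FPKM in WT III and 6215 FPKM in WT I.

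Germin-like proteins, a family of wall proteins listed after values had been seen, also had different leaders. GLP10 had 573 FPKM in WT III and 74.8 FPKM in WT I and GER2 (AT5G39190) 59.3 FPKM in WT III and 1.44 FPKM in WT I, whereas GER3 and GER1 (AT1G72610) were the lower members of the family. Of 17 tubulins TUB8 and TUB6 were higher, at 282 and 655 FPKM in WT III against 108 and 289 FPKM in WT I, and 3 were lower, among them TUB1 at 7.38 FPKM in WT III and 63.3 FPKM in WT I.

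Among water channels, members on both sides were found, and GAMMA-TIP led the tonoplast list at both ends. Of 13 plasma membrane aquaporins PIP1;5 and PIP2;4 were higher, with PIP1;5 (AT4G23400) at 459 FPKM in WT III and 75.5 FPKM in WT I, and 4 were lower, among them PIP3 at 205 FPKM in WT III and 920.2 FPKM in WT I and PIP2E at 24.5 FPKM in WT III and 173 FPKM in WT I. Of 5 tonoplast aquaporins TIP2;2 (AT4G17340) was higher, at 51.4 FPKM in WT III and 11.8 FPKM in WT I, and 3 were lower, DELTA-TIP, GAMMA-TIP at 676 FPKM in WT III and 1364 FPKM in WT I and TIP2 (AT3G26520) at 461 FPKM in WT III and 968 FPKM in WT I. The tonoplast list summed to 1295 FPKM in WT III and 3694 FPKM in WT I.

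Genes of the plant surface were lower in most members and higher in none. Of 13 cutin genes 10 were lower and 0 higher (median -2.78), and of 17 wax genes 12 were lower and 0 higher (median -1.72). PEL3, an acyltransferase, had 0.92 FPKM in WT III and 59.7 FPKM in WT I, GPAT4, an acyltransferase of cutin, 3.44 FPKM in WT III and 47.7 FPKM in WT I, and LACS1, an acyl-CoA synthetase, 45.3 FPKM in WT III and 185 FPKM in WT I. In the wax list CER1, of alkane formation, had 124 FPKM in WT III and 578 FPKM in WT I and CYP96A15 (MAH1), the alkane hydroxylase, 97.1 FPKM in WT III and 416 FPKM in WT I. The elongase KCS6 and the exporter ABCG12 hardly differed, with ABCG12 at 52.2 FPKM in WT III and 52.4 FPKM in WT I. Of 9 flavonoid genes 6 were lower and 0 higher, with TT4 (chalcone synthase) at 0.60 FPKM in WT III and 91.1 FPKM in WT I and F3H at 1.57 FPKM in WT III and 37.3 FPKM in WT I.

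**Figure D5:**
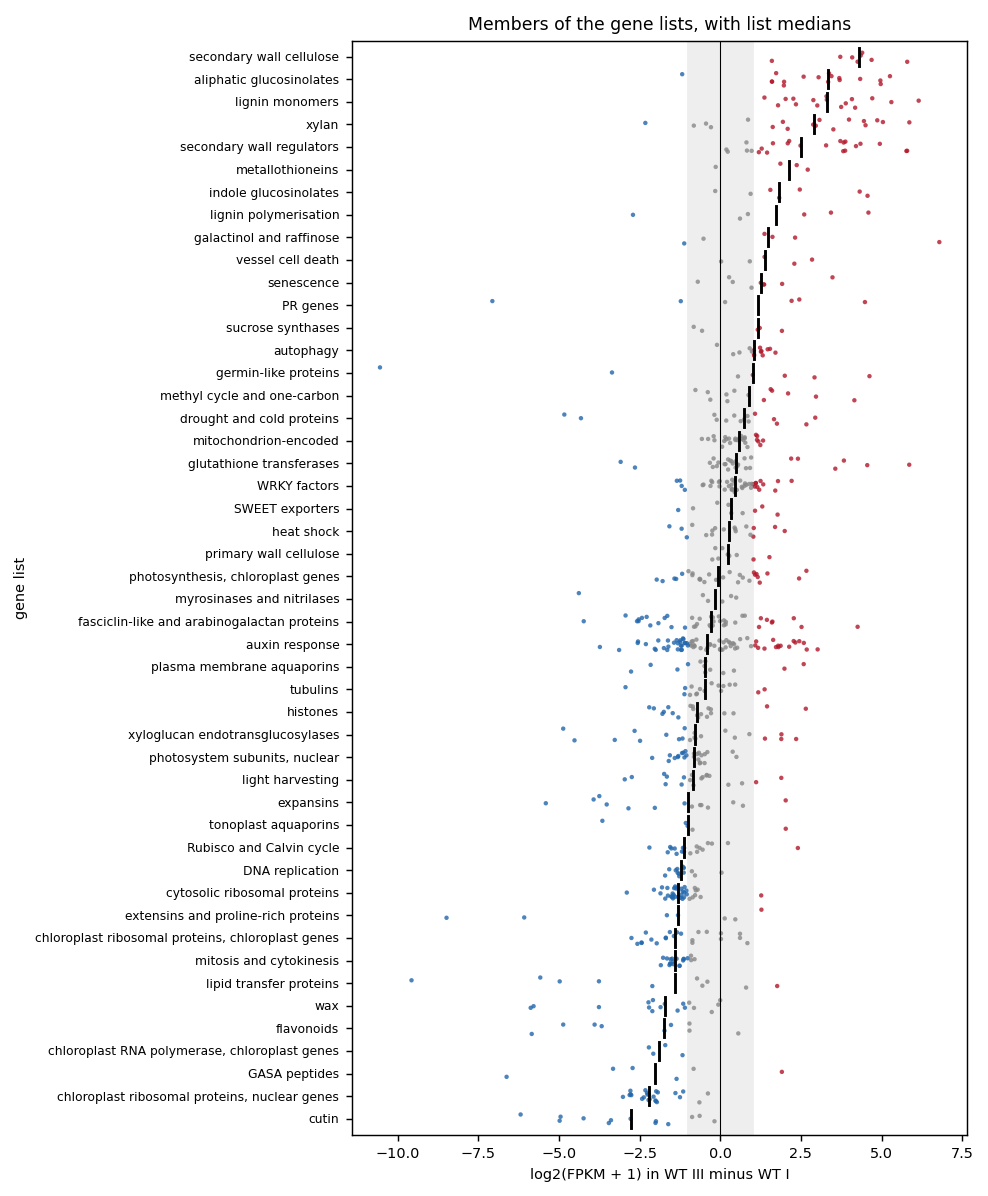
Points are the measured members of the gene lists with at least 4 measured members, placed by log2(FPKM + 1) in WT III minus WT I, with 1 library each. Red points are at least 2-fold higher in WT III, blue points at least 2-fold lower, the grey band is the range within 2-fold and black bars are list medians. Medians run from 4.31 for secondary wall cellulose to -2.78 for cutin, and families such as the germin-like proteins hold members far out on both sides.

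Genes of sugar metabolism, autophagy and senescence held more members on the higher than on the lower side. Of 6 genes of galactinol and raffinose metabolism 4 were higher and 1 lower, SIP2, an alpha-galactosidase, with 90.8 FPKM in WT III and 198 FPKM in WT I. Of 5 sucrose synthases 3 were higher, with SUS1 at 35.6 FPKM in WT III and 15.4 FPKM in WT I, the highest levels of the list. The median of the sucrose synthases was 1.16, and it was -0.57 over the members at 5 FPKM or more in either library. The sugar exporters SWEET11 and SWEET12, of phloem loading, were higher at 58.7 and 69.9 FPKM in WT III against 16.4 and 32.6 FPKM in WT I, but stood at 214 and 244 FPKM in WT II. Of 15 autophagy genes 10 were higher and 0 lower (median 1.05), with ATG8H at 69.6 FPKM in WT III and 20.6 FPKM in WT I and NBR1, a cargo receptor, at 129 FPKM in WT III and 61.6 FPKM in WT I. Of 9 senescence genes 5 were higher and 0 lower, with ERD1, a chloroplast protease subunit, at 70.5 FPKM in WT III and 17.9 FPKM in WT I, while SAG12, a marker of late leaf senescence, had 1.39 FPKM in WT III and was listed at 0 in WT I.

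Ranked by size, the 10 genes that differed most on each side, taken at 10 FPKM or more in the higher library, add members not yet described. On the higher side IQD10, a calmodulin-binding protein, had 341 FPKM in WT III and 3.33 FPKM in WT I, PAL4 differed by 6.15, IRX15 by 5.86 and GSTF2 by 5.86. The unnamed AT1G13635, AT1G22480 and AT5G47635 had 309, 486 and 92.2 FPKM in WT III against 3.48, 6.81 and 0.52 FPKM in WT I. On the lower side DGR2 had 0.57 FPKM in WT III and 309 FPKM in WT I, and the other 9 were GER3, AT2G10940, LP1, PRP2, AT5G15780, ADS4, VSP1, BAS and GASA4. In WT II, IQD10 stood at 317 FPKM and AT1G13635 at 233 FPKM, close to their levels in WT III.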

How the data were processed

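The deposited files give FPKM per gene and library, made by the authors and written to 2 decimals, per the file headers. Trimmomatic, HISAT, Bowtie2, RSEM and the build TAIR10 are named in the submitters' processing notes without versions or roles. The sources used here do not give the handling of reads that fit several near-identical genes. The tables were joined by gene ID, and 23238 of 23615 IDs were matched to gene names (assembly TAIR10.1). The others were 195 loci added by the authors, 74 chloroplast and 108 mitochondrial genes. Samples were grouped by their titles. Differences of log2(FPKM + 1) were computed with Python 3.11.15, pandas 2.3.3 and numpy 2.4.6 and tested on simulated data, and no test between conditions was possible. Depth was estimated from steps of single fragments in genes of 250 to 900 bp, where 70.4% to 72.0% of values under 1 FPKM lay within 0.15 of a whole fragment, against 30% for evenly spread values. The step size was itself chosen on these values.

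The text names the 15 highest genes of each library, the 10 largest differences in each direction, the 10 highest genes near 0 at the other end, and per list the members with the largest differences or levels and any against the list's direction. Other genes named, including some list examples, were chosen after their values were seen. The members and the 48 gene and 11 marker lists were chosen with earlier results of these data known, and the classes whose shares are given are unions of these lists. Lists and classes overlap, and a gene such as FLA11 or LTPG1 is counted in each that holds it. Alternatives covered the pseudocount, the filter, the scaling, the genes entering shares and the limits for near 0. The 6 chromatin samples and the library labelled atx1 were not analysed here.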

Additional observations from a re-analysis of the deposited data

How the results depend on the processing

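With 1 library a side, no result has an error, and near-identical genes may share reads. No paired analysis was possible because each group has 1 library and the labels carry no replicate numbers. The counts of genes near 0 moved with their limits, as fewer or more genes meet a tighter or looser limit. Near 0 in WT I, below 0.1 FPKM gave 14 genes and below 1 FPKM gave 71, and at least 5 and at least 20 FPKM at the other end gave 94 and 13. Near 0 in WT III the counts were 27, 97, 133 and 38. Genes at least 2-fold higher and lower in WT III numbered 2689 and 2828 with a pseudocount of 0.1, 1864 and 1953 at 5 FPKM or more, 2238 and 2350 with median-of-ratios scaling and 2377 and 2208 with equal FPKM sums. These scalings shifted the median of all genes by under 0.1. WT II in place of WT III gave 1863 and 3031. Shares of the 10, 100 and 1000 highest genes hardly moved without organelle genes or without loci outside the annotation (10 highest, 5.37% to 5.41% in WT III and 7.13% to 7.19% in WT I), and the 100 highest shared 48 genes each time. The position of WT II, run with a pseudocount of 0.1 (chosen after seeing the data), came to 1931 higher and 1956 lower genes nearer to or past WT III. The median of sucrose synthases turned to -0.57 at 5 FPKM or more, where 1 of its members stayed higher. Medians dropped under 2-fold for 9 lists under at least 1 alternative and passed it for 2, and for 2 they changed sign within 2-fold (auxin 0.18 and chloroplast photosynthesis genes 0.90 at 5 FPKM or more), and of the named genes CA1 dropped under it with equal FPKM sums (-0.99). Promoter motifs were planned and not run.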

Other observations

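Lists of defence, stress and auxin genes held members on both sides. Of 44 WRKY transcription factors 11 were higher in WT III (5 at 5 FPKM or more in either library) and 4 lower, with WRKY12, a regulator of pith walls, at 53.6 FPKM in WT III and 15.7 FPKM in WT I, WRKY25 at 24.7 FPKM in WT III and 4.54 FPKM in WT I, and WRKY18 at 78.1 FPKM in WT III and 200.1 FPKM in WT I. Of 6 defence proteins 3 were higher, BGL2 (PR2), a glucanase, at 62.2 FPKM in WT III and 1.82 FPKM in WT I, PR5 at 111 FPKM in WT III and 19.5 FPKM in WT I and the chitinase gene CHI at 7.94 FPKM in WT III and 0.93 FPKM in WT I, while VSP1 and VSP2 were lower, with VSP2 at 101 FPKM in WT III and 238 FPKM in WT I. Of 15 drought and cold genes 5 were higher and 2 lower. LTI30 and LTI78 had 81.4 and 79.8 FPKM in WT III against 9.69 and 11.7 FPKM in WT I, whereas COR15A and COR15B had 0.30 and 1.36 FPKM in WT III against 24.97 and 66.4 FPKM in WT I. Of 18 heat shock genes 4 were higher and 3 lower. The cytosolic chaperone HSP90.1 had 127 FPKM in WT III and 61.4 FPKM in WT I, while its chloroplast counterpart CR88 had 60.8 FPKM in WT III and 184 FPKM in WT I.

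Of 76 measured auxin response genes 16 were higher and 28 lower, and the median was -0.42. Among genes at 5 FPKM or more in either library 14 were higher and 13 lower, and the median was 0.18. The repressor IAA19 had 11.4 FPKM in WT III and 37.4 FPKM in WT I and IAA7 169.9 FPKM in WT III and 368 FPKM in WT I, while IAA10 and IAA28 had 16.97 and 64.8 FPKM in WT III against 3.91 and 24.5 FPKM in WT I. KAT1, a potassium channel of guard cells, had 25.2 FPKM in WT III and 1.68 FPKM in WT I, while the guard cell factor FMA (FAMA) had 15.6 FPKM in WT III and 15.7 FPKM in WT I.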
